A study of Homo sapiens with 4 samples.

Results

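The genes described here are 34 components of the machinery that brings proteins into mitochondria, out of 60302 genes in a table of FPKM (fragments scaled to gene length and library size). The cells were HMLE, human mammary epithelial cells that have been immortalized. The genes were chosen by name, as subunits of the TOM and TIM translocases and the chaperones and peptidases that act with them, because TIMM17B stood about 2.31-fold lower in the knockdown samples than in the controls. All 34 were found, with the highest-mean row taken for a symbol listed more than once, and all 34 had a mean of at least 1 FPKM and entered the test over the 13110 genes at that level. The 2 control samples carried a lentiviral non-specific shRNA, stably expressed, and the 2 knockdown samples one against hnRNPF, a splicing regulator that binds runs of G in RNA. All 4 samples share the HMLE background and the lentiviral delivery, and the RNA was polyA-selected. Separate infections or different hairpins within a group are not stated, so every SD (n = 2 per group) and p-value measures only the spread between these samples.

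Most mitochondrial proteins are made in the cytosol and must cross 1 or both mitochondrial membranes. The TOM complex of the outer membrane recognises and admits nearly all of them. The TIM23 complex of the inner membrane then passes proteins with a cleavable presequence to the matrix, where a chaperone motor pulls them in, and the TIM22 complex inserts the metabolite carriers, which small TIM chaperones escort across the intermembrane space. TIMM17A and TIMM17B are paralogs, and human TIM23 complexes contain one or the other beside the channel protein TIMM23.

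HNRNPF, the targeted gene, stood at 154 and 153 FPKM in control cells against 18.7 and 16.6 FPKM after knockdown, so each sample matched its label. Its difference on the log2(FPKM + 1) scale was -3.05 (SE 0.0986, limma adjusted p = 0.0251), a call that was lost when control 1 or control 2 was left out, with the replicate number as a block, with no filter on low values and without the intensity trend. In all that follows values are in the order control 1, control 2, knockdown 1, knockdown 2. The summed FPKM lay between 391184 and 396135 per sample. Genes with 1 exon give a rough depth of 77400000 to 85000000 fragments per sample. It was taken from their most frequent value of FPKM times length, read as 1 fragment. Among the low values, that one included, 42.7% to 45.3% were whole multiples of it within 0.02. The depth is therefore uncertain. The basal mammary markers KRT5, KRT14 and KRT17 were between 975 and 4878 FPKM, and TP63 was between 19.5 and 30.9 FPKM. Of the fibroblast markers 5 of 7 had a mean under 1 FPKM, while THY1 was between 15.1 and 18.0 FPKM and COL1A1 between 9.24 and 12.3 FPKM. All 3 listed endothelial markers had a mean under 1 FPKM. Of the leukocyte markers, CD3E was at 0 in every sample and CD68 was between 11.2 and 12.1 FPKM.

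TIMM17B, on chromosome X from 48750730 to 48755426 on the minus strand (GRCh37, ENSG00000126768.12), was at 25.4 and 21.8 FPKM in control cells against 10.2 and 10.2 FPKM after knockdown. Both knockdown samples lay below both controls, and the pair of knockdown values differed by far less than the pair of control values. The group means were 23.6 ± 2.54 FPKM and 10.2 ± 0.0457 FPKM, and the difference on the log2(FPKM + 1) scale was -1.13 (SE 0.123). These are the values that chose the set, so no test is read from them. Of all 13110 tested genes, 0.709% had a ratio of mean FPKM of 0.5 or lower, 0.526% had such a ratio without overlap, and 0.32% (42 genes, itself included) had a ratio at or under that of TIMM17B. Its paralog TIMM17A, on chromosome 1 from 201924619 to 201939789 on the plus strand (GRCh37, ENSG00000134375.10), was at 48.9 and 45.9 FPKM in control cells against 52.2 and 47.3 FPKM after knockdown. These groups overlapped. The TIMM17A difference was 0.07 with a 95% interval of -0.20 to 0.33 in limma, and it was -0.00209 without knockdown 1.

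The proportion between the paralogs therefore differed between the groups. TIMM17B made up 34.2% and 32.2% of the summed TIMM17A and TIMM17B FPKM in control cells against 16.3% and 17.8% after knockdown. The sum itself was 74.3 and 67.6 FPKM in control cells against 62.3 and 57.5 FPKM after knockdown. On the log2(FPKM + 1) scale the ratio of TIMM17B to TIMM17A was lower by a difference of -1.20 in the knockdown samples, and it lay between -1.12 and -1.27 when any 1 sample was left out. TIMM23, the channel that both paralogs join, was at 48.7 and 49.1 FPKM in control cells against 49.6 and 47.8 FPKM after knockdown, with a 95% interval of -0.23 to 0.22 for the log2 difference in limma. It shares 16.97% of its 50-base stretches with TIMM23B, which was at 21.0 to 23.8 FPKM, so its level is less certain than those of the paralogs. The ratio of TIMM17A to TIMM23 was 1.005 and 0.933 in control cells against 1.05 and 0.989 after knockdown, with overlapping groups. The ratio of TIMM17B to TIMM23 went from 0.521 and 0.443 to 0.205 and 0.214.

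**Figure D1:**
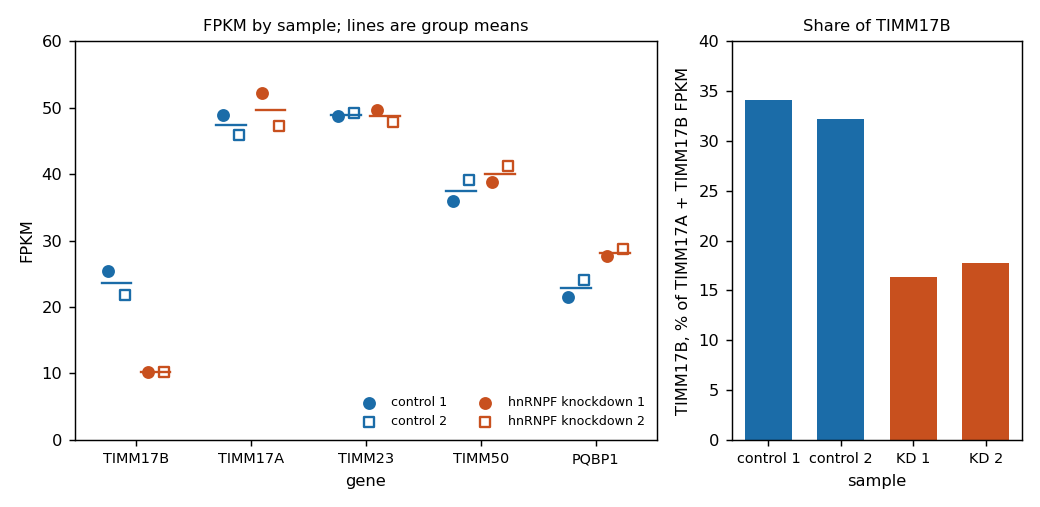
Left, FPKM of TIMM17B, TIMM17A, TIMM23, TIMM50 and PQBP1 in each of the 4 samples, with lines at group means; right, TIMM17B as a percentage of the summed FPKM of both paralogs in each sample. TIMM17B was at 10.2 FPKM in both knockdown samples and at 25.4 and 21.8 FPKM in the controls, while TIMM17A, TIMM23 and TIMM50 overlapped between the groups.

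The coding sequences of the paralogs show how far fragments of one could be taken for the other. They are 516 bases (TIMM17A) and 519 bases (TIMM17B) long in the principal transcripts of GENCODE 29 (GRCh38), and 67.6% of their aligned positions are identical. The last 300 bases of each, positions 217 to 516 and 220 to 519, hold most of the differences and are printed 5′ to 3′ on the coding strand, with the bases that differ from the paralog, or have no partner in it, in capitals:
TIMM17A: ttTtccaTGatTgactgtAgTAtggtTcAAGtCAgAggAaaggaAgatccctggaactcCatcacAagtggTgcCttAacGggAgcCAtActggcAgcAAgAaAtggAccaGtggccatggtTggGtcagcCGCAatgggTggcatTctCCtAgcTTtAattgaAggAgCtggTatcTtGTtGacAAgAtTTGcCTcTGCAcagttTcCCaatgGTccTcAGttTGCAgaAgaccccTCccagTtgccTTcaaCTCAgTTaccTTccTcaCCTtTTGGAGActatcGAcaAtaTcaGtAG
TIMM17B: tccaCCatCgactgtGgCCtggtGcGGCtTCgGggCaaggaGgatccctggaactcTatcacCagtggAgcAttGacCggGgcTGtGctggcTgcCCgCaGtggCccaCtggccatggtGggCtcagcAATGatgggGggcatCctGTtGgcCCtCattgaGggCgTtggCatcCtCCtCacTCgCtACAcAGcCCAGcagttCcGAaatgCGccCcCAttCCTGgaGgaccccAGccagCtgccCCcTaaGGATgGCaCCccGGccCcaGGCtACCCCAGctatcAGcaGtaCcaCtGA
The printed stretches hold 111 and 113 such bases and the stretches before them 54 and 55. Over the whole alignment the longest identical run is 23 bases. No stretch of 50 bases in the TIMM17A transcript occurs in a transcript of any other gene. For TIMM17B 1.44% of such stretches do, all in the pseudogene TIMM17BP1, which was listed at 0 FPKM in every sample. No other gene in the table overlaps TIMM17B on its strand. GENCODE 29 lists 8 transcripts of TIMM17B, of which 5 are protein-coding, 1 is subject to nonsense-mediated decay, 1 retains an intron and 1 is a processed transcript. The table gives 1 value per gene, so which of them differed was not analysed here.

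TIMM17B starts next to PQBP1, a gene on the opposite strand that encodes a polyglutamine-binding protein with a role in splicing. PQBP1 was at 21.6 and 24.1 FPKM in control cells against 27.7 and 28.7 FPKM after knockdown. Both knockdown samples were above both controls, the reverse of TIMM17B. The PQBP1 difference of 0.29 (SE 0.107, 1.23-fold) did not pass the threshold over all genes (limma, adjusted p = 0.817). The RefSeq promoter windows of TIMM17B and PQBP1 (GRCh38.p14, 250 bases before to 50 after the start) share 261 bases, so both genes start from 1 stretch of DNA. On GRCh37 their loci also overlap on opposite strands, PQBP1 starting at position 48755195, and whether fragments were counted by strand is not given in the sources used here. The TIMM17B window is shown beside that of TIMM17A because the paralogs differ in the knockdown contrast. Capitals mark CCAAT and its reverse complement ATTGG, which can overlap each other, a box found in many promoters and known as a binding site of the factor NF-Y:
TIMM17B promoter, chrX:48897719-48898018, minus strand: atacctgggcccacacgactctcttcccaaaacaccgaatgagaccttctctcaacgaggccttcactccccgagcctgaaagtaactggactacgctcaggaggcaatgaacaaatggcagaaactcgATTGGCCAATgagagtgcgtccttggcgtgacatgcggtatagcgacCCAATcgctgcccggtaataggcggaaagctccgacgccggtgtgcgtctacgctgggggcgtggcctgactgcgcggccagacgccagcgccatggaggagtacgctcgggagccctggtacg
TIMM17A promoter, chr1:201955253-201955552, plus strand: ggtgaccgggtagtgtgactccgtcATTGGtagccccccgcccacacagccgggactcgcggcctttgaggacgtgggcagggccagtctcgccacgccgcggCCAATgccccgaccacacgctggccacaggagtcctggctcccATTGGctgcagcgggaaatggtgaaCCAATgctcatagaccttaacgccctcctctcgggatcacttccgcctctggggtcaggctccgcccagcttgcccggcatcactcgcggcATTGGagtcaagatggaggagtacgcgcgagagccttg
The TIMM17B window holds 3 matches and the TIMM17A window 5. Of all 35116 RefSeq promoter windows 34.6% hold at least 1. Counted by gene, with a match in any window of the gene, 10 of the 31 import genes with a window hold it. A share of windows and a share of genes are not like for like. The match is a description of the letters only.

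Since hnRNPF recognises G-rich RNA, the transcripts were also compared by their runs of GGG or longer. The principal transcript of TIMM17B has 22 such runs in 950 bases, or 23.2 per kb, and that of TIMM17A 19 runs in 1659 bases, or 11.5 per kb. TIMM17B ranked 4th of the 34 genes, after TOMM40, TIMM13 and GFER, and 92.0% of tested genes had a lower density. TIMM17A was near the middle, with 44.3% of tested genes below it. The import genes as a whole had a median of 12.8 runs per kb, against 12.4 for the 12955 tested genes with a transcript. TOMM40, with 32.5 runs per kb, TIMM13, with 28.9, and GFER, with 27.3, had differences of 0.08, -0.07 and -0.01 between the groups on the log2(FPKM + 1) scale. Introns, where splicing factors also bind, were not searched, since no genome sequence was at hand. The runs were counted in 1 transcript per gene, and a link between them and the group differences was not tested.

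Over the 34 genes, 13 had a log2 difference above 0 and 21 below 0, with a median of -0.04. Over all tested genes 6586 were above 0 and 6524 below, with a median of 0.00120. The set was chosen through a gene that is lower, so nothing is read from this split. In limma 0 of 34 passed in either direction (1 gene of all tested, HNRNPF, or 0.00763%, did). At an unadjusted p under 0.05 in limma there was 1 of the 34, against 6.08% of all tested genes. It was TIMM17B, whose values chose the set, so nothing is read from it. Both knockdown samples lay above both controls for 3 genes and below both for 12, with 19 overlapping. Those above were TIMM21, DNAJC15 and PMPCA. Those below were 4 of 9 TOM genes (TOMM20, TOMM22, TOMM70 and TOMM6), 3 of 12 in the TIM23 complex and motor (TIMM17B, HSPA9 and GRPEL1), TIMM13, CHCHD4, and 3 of 4 in the matrix (PMPCB, HSPD1 and HSPE1). Over all tested genes 17.5% lay above and 17.1% below, or 34.6% together, and since the set was chosen from this contrast nothing is read from the difference. The count of 15 without overlap was 27 without control 2, where 70.2% of all tested genes did not overlap, 26 without knockdown 1 (65.9%) and 23 without knockdown 2 (65.3%). Without TIMM17B the ratio of mean FPKM, knockdown over control, ran from 0.448 for TOMM6 to 1.19 for TIMM9. The 2 controls differed by a median of 0.120 on the log2(FPKM + 1) scale across the 34 genes and the 2 knockdown samples by 0.114, against 0.193 and 0.171 across all tested genes.

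**Figure D2:**
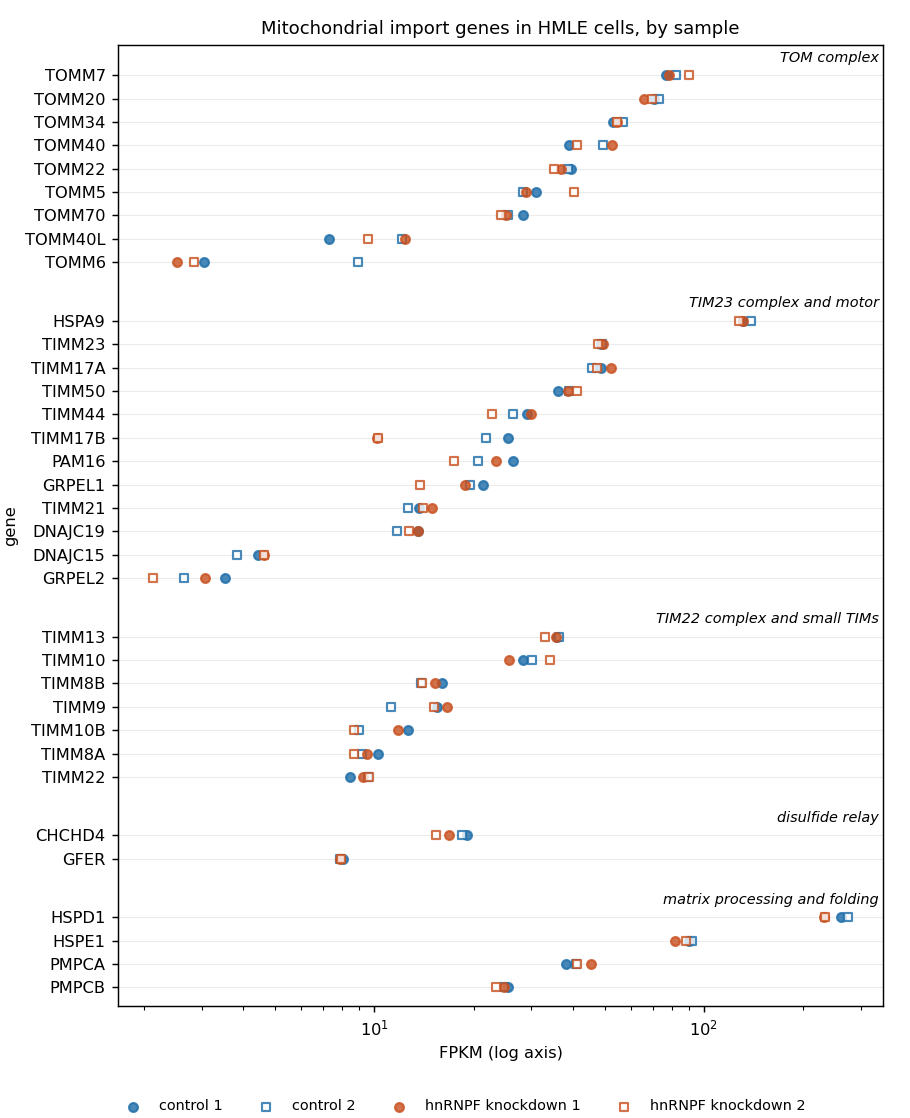
FPKM (log axis) of the 34 import genes in each of the 4 samples, grouped by complex and ordered by the control mean. Levels run from about 2 FPKM for GRPEL2 to 274 FPKM for HSPD1, and TIMM17B and TOMM6 are the genes whose knockdown values lie farthest below a control value.

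Of the TOM complex, TOMM20 and TOMM22, which receive presequence proteins, and TOMM70, which receives carriers, were each slightly lower in both knockdown samples. TOMM20 was at 70.6 and 73.0 FPKM in control cells against 66.0 and 69.8 FPKM after knockdown. TOMM22 was at 39.6 and 38.8 FPKM and then 36.9 and 35.1 FPKM, and TOMM70 at 28.3 and 25.5 FPKM and then 25.1 and 24.3 FPKM. These receptor genes did not overlap between the groups, with ratios between 0.917 and 0.945. Over all tested genes 17.1% lay lower without overlap. The limma intervals of the log2 differences were -0.31 to 0.15 for TOMM20, -0.36 to 0.12 for TOMM22 and -0.40 to 0.16 for TOMM70. Each interval spans both signs, so no lower level of the receptors as a class is read from these values. TOMM40, the channel, overlapped: 38.9 and 49.6 FPKM in control cells against 52.5 and 41.3 FPKM after knockdown. Its less abundant paralog TOMM40L followed the same order of samples, at 7.30 and 12.2 FPKM and then 12.4 and 9.54 FPKM. Control 1 was the lowest and knockdown 1 the highest sample for both channel genes. TOMM34, a cytosolic cochaperone, was at 54.9 ± 2.89 FPKM and 54.6 ± 0.215 FPKM.

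The small TOM subunits, which stabilise the complex, did not share a direction. TOMM7 was at 76.9 and 82.3 FPKM in control cells against 78.6 and 90.3 FPKM after knockdown. TOMM5 was at 30.9 and 28.3 FPKM and then 28.9 and 40.3 FPKM, with knockdown 2 above the other samples, and 68.4% of its 50-base stretches occur in other genes, which were under 0.86 FPKM. TOMM6 was at 3.05 and 8.93 FPKM and then 2.52 and 2.84 FPKM. Its groups did not overlap, with a ratio of 0.448, but control 2 alone set that ratio: the log2 difference was -0.79 over all samples and -0.14 without control 2. It was -1.43 without control 1. The whole TOMM6 transcript is also contained in an overlapping gene on the same strand, listed as PRICKLE4, which was at 17.8, 18.0, 18.0 and 18.2 FPKM. The summed values of both genes were 20.9 and 26.9 FPKM in control cells against 20.6 and 21.1 FPKM after knockdown, a difference of -0.18. How fragments were divided between them is not given in the sources used here, so the TOMM6 level is uncertain.

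In the TIM23 complex and its motor the partners of TIMM17B had ratios of mean FPKM between 0.799 and 1.12. TIMM50, the presequence receptor of the complex, was at 36.0 and 39.1 FPKM in control cells against 38.8 and 41.2 FPKM after knockdown, which overlapped. TIMM21, which links the complex to TOM and to respiratory chain assembly, was higher in both knockdown samples, at 15.0 and 14.0 FPKM against 13.7 and 12.7 FPKM. TIMM44 anchors the motor chaperone to the channel and was at 29.1 and 26.3 FPKM and then 30.0 and 22.8 FPKM, so the knockdown samples lay outside the controls on either side. HSPA9, the mitochondrial HSP70 that drives the motor, was the most abundant gene of the complex. It stood at 131.57 and 138.85 FPKM in control cells against 131.48 and 127.98 FPKM after knockdown, so control 1 and knockdown 1 were nearly equal.

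The cochaperones of HSPA9 are present as paralogs, and their proportions were compared. GRPEL1 and GRPEL2 release its nucleotide. GRPEL1 was at 21.4 and 19.4 FPKM in control cells against 18.9 and 13.7 FPKM after knockdown, without overlap. Its log2 difference of -0.32 (SE 0.180) was -0.54 without knockdown 1 and -0.10 without knockdown 2, so knockdown 2 set most of it. GRPEL2 was at 3.52 and 2.64 FPKM and then 3.06 and 2.13 FPKM, with overlap, and the ratio of GRPEL2 to GRPEL1 also overlapped (0.165 and 0.136, then 0.162 and 0.155). DNAJC19 and DNAJC15 are J proteins that stimulate HSPA9. DNAJC19 was at 13.5 and 11.7 FPKM and then 13.6 and 12.8 FPKM, and DNAJC15 at 4.42 and 3.84 FPKM and then 4.63 and 4.63 FPKM. The ratio of DNAJC15 to DNAJC19 was 0.327 and 0.327 and then 0.340 and 0.363, higher in both knockdown samples. PAM16, which restrains the J proteins, was at 26.4 and 20.7 FPKM and then 23.4 and 17.5 FPKM. It shares 73.4% of its 50-base stretches with the readthrough gene CORO7-PAM16, which stayed under 0.53 FPKM in every sample.

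**Figure D3:**
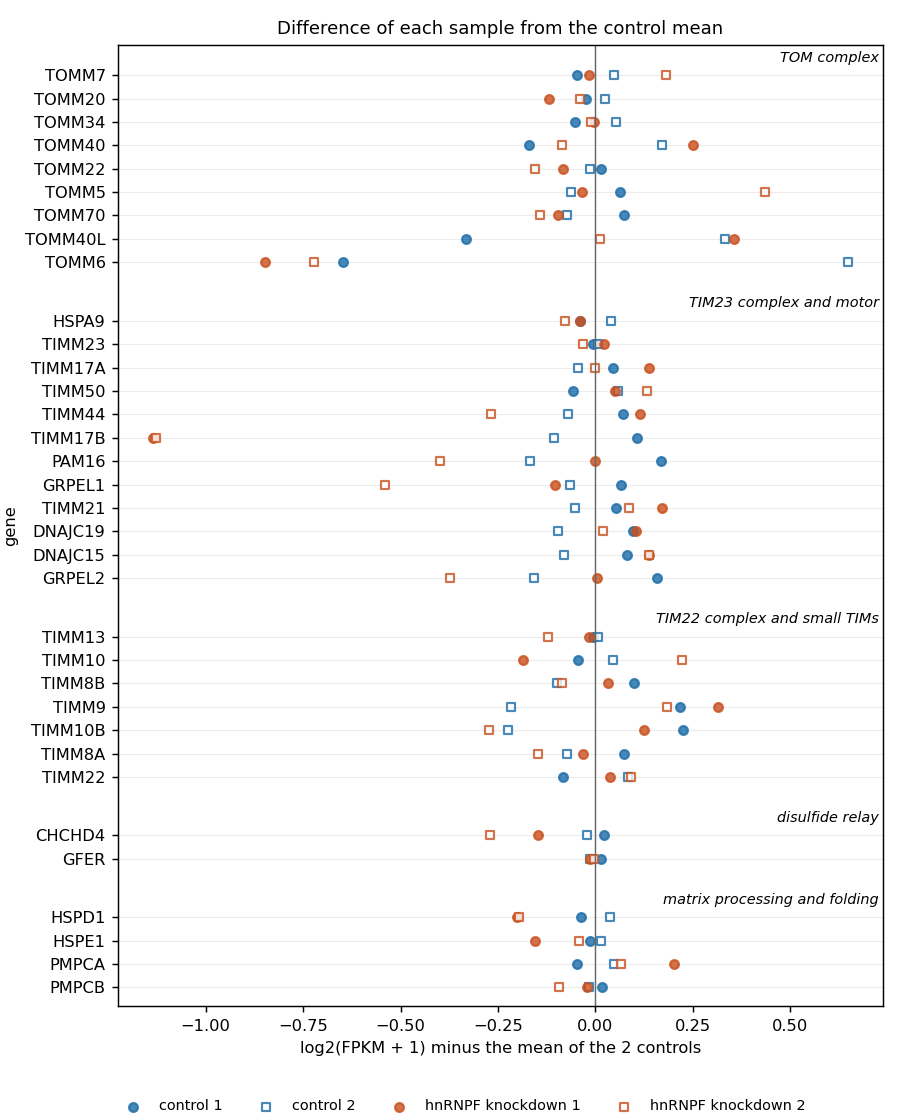
Difference of each sample from the mean of the 2 controls on the log2(FPKM + 1) scale for the 34 genes, grouped by complex. Both knockdown points of TIMM17B lie near -1.13, while the wide spread of TOMM6 comes from control 2.

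The genes of the TIM22 complex and the small TIM chaperones gave overlapping groups for 6 of 7, where 34.6% of all tested genes did not overlap. TIMM22, the insertase, was at 8.42 and 9.59 FPKM in control cells against 9.26 and 9.64 FPKM after knockdown. TIMM9 and TIMM10 form the main carrier chaperone as a hexamer. TIMM9 was at 15.5 and 11.2 FPKM and then 16.6 and 15.1 FPKM, and TIMM10 at 28.3 and 30.2 FPKM and then 25.6 and 34.3 FPKM. Their ratio overlapped between the groups, at 0.547 and 0.372 in control cells against 0.651 and 0.441 after knockdown. TIMM10B, which tethers the chaperones to TIMM22, was at 12.7 and 9.01 FPKM and then 11.8 and 8.68 FPKM.

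TIMM8A and TIMM13 form a second chaperone hexamer, and TIMM8A is the gene mutated in a deafness-dystonia syndrome. TIMM8A was at 10.3 and 9.19 FPKM in control cells against 9.48 and 8.68 FPKM after knockdown, and its paralog TIMM8B at 16.0 and 13.8 FPKM and then 15.2 and 14.0 FPKM. Both overlapped. Their coding sequences share 50.5% of aligned positions. The ratio of TIMM8A to TIMM8B was slightly lower in the knockdown samples, at 0.622 and 0.622 against 0.642 and 0.665. TIMM13 was the gene of the TIM22 and small TIM group without overlap, at 35.9 and 36.3 FPKM and then 35.7 and 33.1 FPKM. Its control 1 and knockdown 1 values differed by less than 1 FPKM. It overlaps LMNB2 on the same strand, with which it shares 10.8% of its 50-base stretches.

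The small TIM proteins are folded by a disulfide relay of the intermembrane space, in which CHCHD4 oxidises incoming proteins and GFER reoxidises CHCHD4. CHCHD4 was at 19.05 and 18.4 FPKM in control cells against 16.8 and 15.4 FPKM after knockdown, without overlap and with a log2 difference of -0.21 (SE 0.108). GFER was nearly level, at 8.05 and 7.86 FPKM and then 7.87 and 7.93 FPKM. The ratio of GFER to CHCHD4 was therefore 0.423 and 0.426 in control cells against 0.468 and 0.516 after knockdown.

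In the matrix, PMPCA and PMPCB form the peptidase that removes presequences. PMPCA was at 38.1 and 40.9 FPKM in control cells against 45.5 and 41.4 FPKM after knockdown, and PMPCB at 25.4 and 24.8 FPKM and then 24.7 and 23.5 FPKM. The subunits thus lay on opposite sides, and the ratio of PMPCB to PMPCA was 0.666 and 0.607 and then 0.543 and 0.567. The limma intervals of the log2 differences were -0.14 to 0.40 for PMPCA and -0.31 to 0.20 for PMPCB. Each interval spans both signs, so no opposite change of the subunits is read from these values. Of all tested genes 17.5% lay higher and 17.1% lower without overlap. HSPD1 and HSPE1 encode the chaperonin HSP60 and its lid HSP10, which fold imported proteins. HSPD1, the most abundant of the 34 genes, was at 261 and 274 FPKM in control cells against 233 and 233 FPKM after knockdown. HSPE1 was at 90.3 and 92.0 FPKM and then 81.7 and 88.5 FPKM. Neither overlapped, and the log2 differences were -0.20 (SE 0.0891) and -0.10 (SE 0.0907). HSPD1 shares 24.8% and HSPE1 27.2% of their 50-base stretches with other genes, among them pseudogenes and the readthrough gene HSPE1-MOB4. HSPD1P1 was at 3.57 to 4.09 FPKM and HSPE1-MOB4 at 0.606 to 1.21 FPKM.

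HSPD1 and HSPE1 also start back to back, and their RefSeq windows on chromosome 2 share 204 bases. A second HSPD1 window lies beyond the shared part. These windows are shown because both genes lay lower without overlap, though neither difference passed in limma. Capitals mark TTCNNGAA or GAANNTTC (N is any base), paired units that heat shock factors are known to bind. Each reads the same on both strands, and matches may overlap:
HSPE1 promoter, chr2:197500129-197500428, plus strand: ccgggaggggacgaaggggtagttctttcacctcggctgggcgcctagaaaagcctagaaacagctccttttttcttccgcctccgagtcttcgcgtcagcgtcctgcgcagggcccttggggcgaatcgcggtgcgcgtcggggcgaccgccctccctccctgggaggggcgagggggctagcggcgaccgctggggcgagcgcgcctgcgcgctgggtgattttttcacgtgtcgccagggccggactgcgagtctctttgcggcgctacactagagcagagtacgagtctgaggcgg
HSPD1 second promoter window, chr2:197499791-197500090, minus strand: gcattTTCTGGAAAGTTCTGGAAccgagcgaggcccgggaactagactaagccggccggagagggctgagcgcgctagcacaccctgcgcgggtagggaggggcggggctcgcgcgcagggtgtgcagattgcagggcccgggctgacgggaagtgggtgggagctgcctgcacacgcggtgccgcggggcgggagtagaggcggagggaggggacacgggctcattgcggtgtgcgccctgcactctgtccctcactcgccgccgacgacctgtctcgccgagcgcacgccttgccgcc
The second HSPD1 window holds 3 overlapping matches at its upstream end. The HSPE1 window and the first HSPD1 window, which share the 204 bases, hold 0. These matches too describe the letters only. Of all windows 13.5% hold at least 1. Counted instead by gene, with a match in any window, 5 of the 31 import genes hold it (DNAJC15, HSPA9, HSPD1, TIMM10 and TOMM70). Windows of 7 import genes overlap that of a tested neighbour on the other strand. Besides the pairs above these are CHCHD4 with TMEM43, TIMM9 with KIAA0586, TIMM10B with ARFIP2, and TOMM70 with LNP1. TMEM43 was at 41.7 and 36.7 FPKM in control cells against 35.4 and 33.5 FPKM after knockdown, on the same side as CHCHD4. LNP1 was likewise on the side of TOMM70, at 1.40 and 1.32 FPKM and then 0.996 and 1.15 FPKM. These values are near the filter of 1 FPKM, and the LNP1 and TOMM70 windows share only 51 bases. Over all tested genes 17.1% lay lower without overlap, and a shared regulation of neighbours was not tested. KIAA0586 and ARFIP2 overlapped between the groups, and PQBP1 was on the opposite side from TIMM17B.

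**Figure D4:**
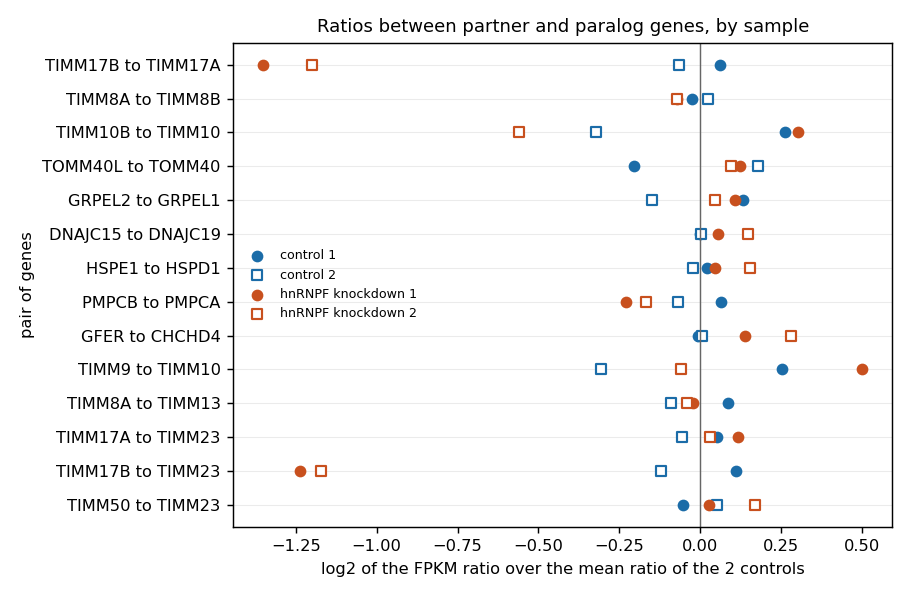
FPKM ratio of each pair of genes in each of the 4 samples, as the log2 of the ratio over the mean ratio of the 2 controls. The pairs with TIMM17B lie below -1 in both knockdown samples, while the ratio of TIMM17A to TIMM23 overlaps between the groups.

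A list of 34 other genes of import and mitochondrial protein quality control was compared in the same fit. In limma 0 of 34 passed, with 0 higher and 2 lower at an unadjusted p under 0.05, near the 6.08% of all tested genes (MTX1 and TRAP1, the latter named after its value was seen). The log2 difference was above 0 for 17 and below 0 for 17, and the median was -0.01. The groups did not overlap for 7 in each direction, where 17.5% of all tested genes lay higher and 17.1% lower. MTX1 encodes metaxin 1, a subunit of the outer membrane machinery that inserts barrel proteins such as the TOM channel. It was at 17.5 and 18.5 FPKM in control cells against 10.5 and 10.4 FPKM after knockdown, 1.73-fold apart (log2 difference -0.73, SE 0.108, limma adjusted p = 0.465). The difference was -0.70 to -0.77 when a sample was left out. MTX1 has a pseudogene copy, and how shared fragments were assigned is not given in the sources used here. Its partners, also named afterwards, overlapped between the groups. SAMM50, the channel of that machinery, was at 29.6 and 32.1 FPKM and then 28.4 and 31.7 FPKM, and MTX2 was at 30.6 and 32.3 FPKM and then 35.9 and 28.7 FPKM. TRAP1, the mitochondrial HSP90, was at 107 and 102 FPKM and then 85.1 and 86.5 FPKM.

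The 13 mitochondrially encoded genes, whose products assemble with imported subunits, all had a log2 difference above 0, with a median of 0.21. Of all 13110 tested genes, 6586 had a difference above 0. The 13 lie on 1 chromosome and are not read as 13 separate observations. Of the 13, 2 were without overlap, against 34.6% of all tested genes. The summed FPKM of the 13 was 31978 and 24742 in control cells against 31102 and 32440 after knockdown, so control 2 was the low sample. Without control 2 the difference was above 0 for 8 of 13, with a median of 0.03. The summed FPKM of the 34 import genes was 1320 and 1345 in control cells against 1281 and 1263 after knockdown. In bulk RNA, fewer cells with a transcript and less of it per cell cannot be told apart.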

How the data were processed

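PolyA-selected RNA of 4 HMLE samples, 2 control and 2 hnRNPF knockdown by their titles, was sequenced as stranded paired-end libraries, per the labels' protocols. The authors deposited FPKM, 1 value per gene and sample, per the file headers. STAR 2.5.3a, Cuffdiff 2.2.1 and GRCh37 appear, without roles, in the submitters' processing notes; the annotation release is not given in the sources used here. FPKM depend on how fragments were shared among overlapping or near-identical genes.

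The 13110 genes averaging 1 FPKM or more were fitted on log2(FPKM + 1) with limma 3.58.1 in R 4.3.3 (intensity trend, 4 samples, no covariate, two-sided, Benjamini-Hochberg at 0.05). The code was also run on simulated data with independent noise drawn from the same fit, which does not measure its power in these samples. Fold and ratio are of mean FPKM. Genes are given in every sample for fixed paralog and partner pairs, or where groups did not overlap and the ratio was at least 1.2 in either direction (1.3 in the other import list); the other members were added to complete each role. Neighbouring genes were taken where promoter windows overlap. The members and lists were chosen with earlier results of these data known. RefSeq windows (GRCh38.p14) matched 31 of 34 members, not TOMM5, GRPEL1 and TIMM8B. Transcripts came from GENCODE 29, matched by gene identifier, with Python 3.11.15, pandas 2.3.3 and Biopython 1.88; stretches of 50 bases were compared on the transcript strand. Alternatives were other pseudocounts, filters, scalings, variance models, the replicate number as a block, sums with overlapping genes, and leaving out each sample; for the mitochondrially encoded genes the last was added after the data were seen.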

Additional observations from a re-analysis of the deposited data

How the results depend on the processing

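The TIMM17B difference of -1.13 lay between -1.03 and -1.24 when a sample was left out. Under the other alternatives it lay between -1.11 and -1.20. The TIMM17B to TIMM17A difference of -1.20 kept its direction in all alternatives run. Both rest on the values that chose the set, so no support is read from this. The number of genes called over the whole table, 1 as reported, was 0 with no filter (949 higher and 754 lower at an unadjusted p under 0.05 in limma), 0 without the intensity trend (420 and 369) and 2 with median-ratio scaling. It was 0 to 2 when a sample was left out, with 0 without control 1 (342 and 251), 0 without control 2 (405 and 482) and 2 without knockdown 2. The cause was not tested. With the replicate number as a block (replicate block) it was 0 (972 and 818), on fewer residual degrees of freedom, and the TIMM17B difference was the same -1.13. The shared numbers are not stated to pair the samples; the differences between numbers 1 and 2 correlated at 0.390 across 13110 genes between the groups. The count of import genes without overlap, 15, was 13 with a filter at 5 FPKM, 13 with either other scaling, 14 with overlapping genes summed, and 22 to 27 when a sample was left out, where fewer samples make overlap rarer. Among 18 other import genes tracked under the alternatives, 9 changed sign when a sample was left out, all with overlapping groups: TOMM40 (0.08 to -0.09), TOMM40L (0.18 to -0.15), TIMM10 (0.02 to -0.19), TIMM10B (-0.07 to 0.15), TIMM8B (-0.03 to 0.07), and also TIMM17A, GFER, GRPEL2 and DNAJC19. Of 177 alternatives that kept all samples, TIMM10 changed sign in 1 (-0.00142 with median-ratio scaling), and 2 moved a value by over 1 SD, HSPD1 with quantile normalization (-0.16) and GFER with median-ratio scaling (-0.03). With 2 samples per group, differences of the size seen for most members could not be told from the spread between samples.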
